A study of Rattus norvegicus with 6 samples.

Results

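Integrins are the adhesion receptors with which leukocytes hold on to other cells and to the matrix, and 10 of their subunit genes were read here in brain macrophages of rats with and without an ischemic stroke. The genes were the β2 chain of leukocytes, *Itgb2*, with its α partners *Itgam*, *Itgax* and *Itgal*, the matrix-binding α chains *Itga5* and *Itgav* with the β chains *Itgb1*, *Itgb3* and *Itgb5*, and *Itga4*, which pairs with *Itgb1*. They were matched by symbol to probe sets that name a single gene. Of the 10 genes, 9 had such a probe set, among 14217 genes on the array. No probe set named *Itga4* alone, so *Itga4* was not analysed here.

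The RNA on an array came from the CD163+ perivascular and meningeal macrophages of 1 adult male Sprague-Dawley rat, sorted from its right hemisphere. The ischemic rats were 64, 65 and 66, whose right middle cerebral artery had been occluded for 1 h and reopened for 16 h. The control rats were 63, 68 and 69, without ischemia. No genetic modification was named for either group. The occluded rats had surgery with the analgesic buprenorphine and isoflurane anaesthesia. The paper names no sham operation or matching drugs for the control rats, so these cannot be told apart from the ischemia. Both groups went through the same enzymatic dissociation, density gradient and sort. The comparison asks how the integrin genes of these macrophages differed between the ischemic and the control brain.

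An integrin is a pair of 1 α and 1 β chain that spans the membrane. The β2 integrins are largely restricted to leukocytes, where αMβ2 (CD11b/CD18) and αXβ2 (CD11c/CD18) bind complement fragment iC3b and fibrinogen, and αLβ2 (LFA-1) binds the ICAM proteins. The β1 integrin α5β1 is a fibronectin receptor, and αvβ3 and αvβ5 bind matrix proteins such as vitronectin through the same short peptide motif and help phagocytes to hold apoptotic cells. The protein of *Itgam*, CD11b, was itself one of the markers of the sort in both groups, with the antibody clone OX-42, which is known to bind rat CD11b and CD11c. *Itgam* and *Itgax* are therefore genes of the gate. The other members were not themselves targets of the sort. The protein of *Itgb2* is nevertheless tied to the gate, since CD11b and CD11c need it to reach the cell surface.

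Promoter sequence is shown for 3 members of different behaviour, *Itgam* and *Itgax*, which were higher after ischemia, and *Itgb5*, which was lower. The windows run from 250 bases before to 50 bases after a start site in the RefSeq annotation of GRCr8, 5′ to 3′ on the strand of the gene, and 7 of the 10 members had one. *Itgam* lies on the plus strand at chr1:192089342-192089641, *Itgax* on the plus strand at chr1:192149799-192150098 and *Itgb5* on the minus strand at chr11:80449324-80449623. Capitals mark the letters GAGGAA on either strand (TTCCTC where read on the other strand), a core sequence bound by the myeloid factor PU.1, and TGANTCA, the sequence bound by AP-1.
Itgam: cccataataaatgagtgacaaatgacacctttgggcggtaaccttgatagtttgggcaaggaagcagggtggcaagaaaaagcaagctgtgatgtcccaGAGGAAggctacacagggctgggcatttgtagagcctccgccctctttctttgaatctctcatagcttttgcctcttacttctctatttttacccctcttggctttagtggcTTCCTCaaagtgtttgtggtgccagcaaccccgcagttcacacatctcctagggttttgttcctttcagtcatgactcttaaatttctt
Itgax: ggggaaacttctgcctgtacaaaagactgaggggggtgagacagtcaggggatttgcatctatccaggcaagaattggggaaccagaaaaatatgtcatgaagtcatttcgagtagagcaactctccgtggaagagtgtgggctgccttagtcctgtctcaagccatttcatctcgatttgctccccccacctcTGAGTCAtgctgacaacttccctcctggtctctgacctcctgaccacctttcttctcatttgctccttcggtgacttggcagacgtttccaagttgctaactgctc
Itgb5: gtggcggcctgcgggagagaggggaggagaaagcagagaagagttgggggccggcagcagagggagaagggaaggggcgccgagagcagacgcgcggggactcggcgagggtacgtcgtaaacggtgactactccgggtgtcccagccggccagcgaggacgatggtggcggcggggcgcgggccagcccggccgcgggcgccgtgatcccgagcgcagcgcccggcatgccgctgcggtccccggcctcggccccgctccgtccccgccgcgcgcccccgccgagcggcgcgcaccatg
GAGGAA occurred at positions -151 and -39 from the start site of *Itgam*, once in the windows of *Itgb1*, *Itga5* and *Itgav*, and in none of those of *Itgax*, *Itgb5* and *Itga4*. It was held by 27.6% of all 33469 promoter windows of the same length. TGANTCA occurred once, at position -56 of *Itgax*, and in 7.33% of all windows. ACGTG, the core of the hypoxia response element, was in none of the 7 windows and in 19.3% of all windows. No motif in the 3 printed windows overlapped another. *Itgam* and *Itgax* are next to each other on chromosome 1 with 0 protein-coding genes between them, *Itgad* follows *Itgax* directly, and 33 protein-coding genes lie between *Itgal* and *Itgam*.

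Values are log2 RMA values, in which a difference of 1 is a doubling, and they are compared between groups for the same probe set. Where a gene is subtracted from its partner within an array, only the change of that difference between the groups is read. Background was taken as 7.43, the 90th percentile of 29 genes of other tissues such as liver, pancreas and muscle. The median of these genes was 6.24 and their highest mean was 8.74. Values between 7.43 and 8.74 may be partly background, so a difference from such a value may be understated. Array medians lay between 7.82 and 7.87 in ischemic rats and between 7.82 and 7.895 in control rats. Control 63 stood apart, with a highest value of 13.85 against 14.88 to 14.96 on the other 5 arrays, and with a mean over 8 endothelial markers of 10.29 against 8.75 and 8.92 in the other controls and 8.68 to 8.85 in ischemic rats. For actin, the 3′ probe set exceeded the 5′ probe set, a measure of RNA and labelling quality, by 0.17 to 0.24 in ischemic rats and 0.058 to 0.073 in control rats. For GAPDH this excess was 0.75 to 0.80 in ischemic rats and 0.52 to 0.65 in control rats. The part of this quality difference in the results below was not tested.

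Most of the measured integrin genes were higher after ischemia, and *Itgb3* and *Itgb5*, which share the α partner *Itgav*, changed in opposite directions. Of the 9 genes, all of which passed the low-signal filter, 6 were higher, 1 was lower and 2 did not pass the test (limma, adjusted p under 0.01 by the Benjamini-Hochberg method over 9928 genes, two-sided). Over all genes tested, 16.8% were higher and 5.99% were lower. With a log2 fold change beyond 2 as a further threshold, *Itgb3*, *Itgax* and *Itgam* were higher and *Itgb5* was lower, whereas 1.63% of all genes were higher and 0.584% lower by this rule. The median log2 fold change was 0.84 over the 9 genes and 0.10 over all genes. With arrays centred on 42 ribosomal protein genes, 4 of the 9 genes were higher and 1 was lower, and the median of all genes was -0.32. Of the 9876 genes tested with this centring, 397 were higher and 1360 lower. The groups did not overlap for any of the 9 genes, as for 55.6% of all genes. In sorted cells a larger share of a cell type and more RNA per cell cannot be told apart.

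**Figure D1:**
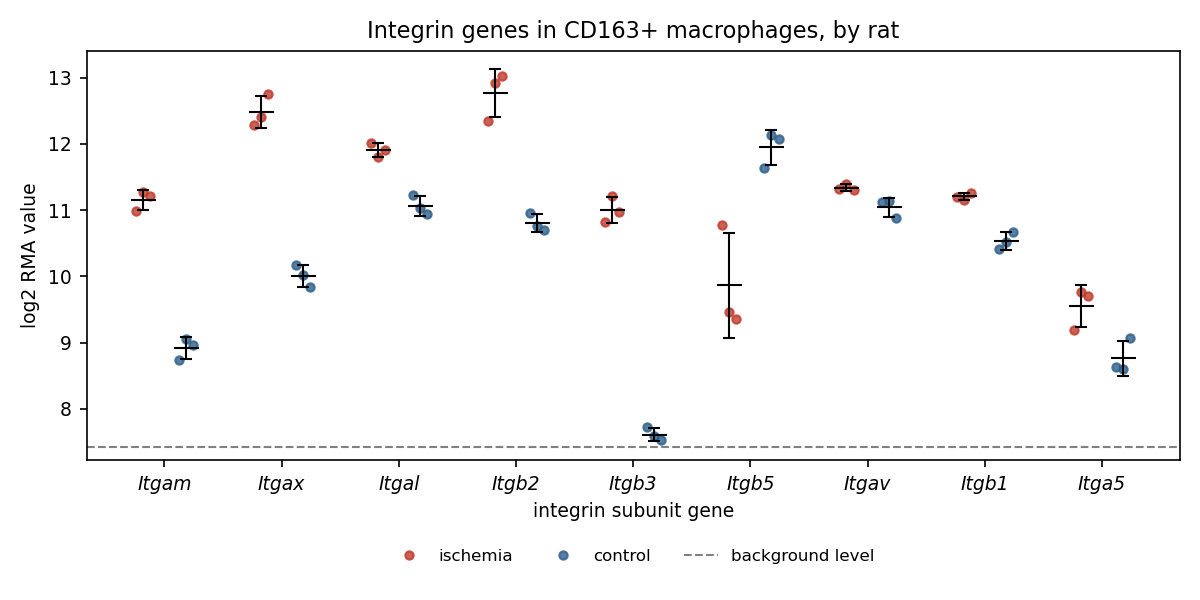
Log2 RMA values (vertical axis) of the 9 measured integrin genes (horizontal axis), 1 point per rat, with the 3 ischemic rats left of the 3 control rats. Long ticks and bars are the mean and SD, and background, at 7.43, is dashed. The groups are apart for every gene, *Itgb5* is the only gene with the ischemic rats below the controls, and the control values of *Itgb3* lie close to the dashed line.

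Among the β2 integrins, *Itgax*, the α chain of CD11c/CD18, read 12.28, 12.41 and 12.76 in ischemic rats 64, 65 and 66, against 10.17, 10.02 and 9.83 in control rats 63, 68 and 69. All ischemic values lay more than 2 log2 units above every control value. *Itgax* was higher by 2.47 (SE 0.17, 95% interval 2.09 to 2.86, limma adjusted p = 0.000115), a 5.56-fold difference. *Itgam*, the α chain of CD11b/CD18, read 10.99, 11.27 and 11.21 in ischemic rats against 8.74, 9.06 and 8.97 in control rats. Its rise of 2.24 (SE 0.14, 95% interval 1.90 to 2.57, limma adjusted p = 0.000104) was seen in cells that had all been sorted with an antibody to its protein.

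*Itgb2*, the common β chain that both need to reach the cell surface, read 12.35, 12.92 and 13.02 in ischemic rats, against 10.96, 10.76 and 10.70 in control rats. Rat 64 was the lowest of the ischemic rats and the controls were close together. The difference was 1.96 (SE 0.19, 95% interval 1.51 to 2.40, limma adjusted p = 0.000459), or 3.89-fold. *Itgal*, the α chain of LFA-1, read 12.02, 11.81 and 11.90 in ischemic rats against 11.23, 11.04 and 10.94 in control rats, and was higher by 0.84 (SE 0.13, 95% interval 0.53 to 1.15, limma adjusted p = 0.00244). Its groups were less than 1 log2 unit apart between the lowest ischemic and the highest control rat. The call for *Itgal* was lost when arrays were centred on ribosomal protein genes (0.41, adjusted p = 0.229) and, with adjusted p between 0.0101 and 0.0106, when ischemic rat 65 or 66 or control rat 68 or 69 was left out or quantile normalization was repeated.

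The β3 gene, *Itgb3*, had the largest change of the 9 genes. Together with αv its protein forms a receptor for vitronectin, fibronectin and osteopontin, and together with αIIb the fibrinogen receptor of platelets. *Itgb3* read 10.82, 11.21 and 10.98 in ischemic rats, against 7.72, 7.58 and 7.53 in control rats. The mean was 11.003 ± 0.20 in ischemic rats and 7.61 ± 0.10 in control rats (SD, n = 3 each). The rise of 3.39 (SE 0.14, 95% interval 3.06 to 3.73, limma adjusted p = 4.22e-05) was a 10.5-fold difference in the measured values. The control values were within the range of the genes of other tissues, so the control level has only an upper limit and the difference is a lower limit.

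*Itga2b*, the α partner of *Itgb3* in platelets, read 7.85, 7.85 and 7.73 in ischemic rats, against 7.77, 7.93 and 7.70 in control rats. The groups overlapped and the difference was 0.0075 (SE 0.13, limma adjusted p = 0.967). All these values were within the range of the genes of other tissues, so the probe set may read only background. Over the 5 platelet markers with a probe set, the mean was 6.51 to 6.55 in ischemic rats and 6.56 to 6.73 in control rats, 0 of the 2 tested passed, and *Gp9*, a subunit of the platelet receptor for von Willebrand factor, averaged 7.19 in ischemic rats and 7.56 in control rats (limma adjusted p = 0.0801). The remaining 3 platelet markers, *Ppbp*, *Treml1* and *Tubb1*, averaged 4.77 to 6.45 in ischemic rats and 4.74 to 6.74 in control rats, below background in both groups.

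*Itgb5*, whose protein forms the vitronectin receptor αvβ5, was the only one of the 9 genes that fell. It read 10.78, 9.46 and 9.36 in ischemic rats, against 11.64, 12.13 and 12.08 in control rats. Ischemic rat 64 lay between the other ischemic rats and the controls, and control 63 was the lowest control. The difference was -2.08 (SE 0.36, 95% interval -2.91 to -1.26, limma adjusted p = 0.00327), or 4.24-fold lower. The array reads the gene with 2 further probe sets. The second probe set read 9.12, 8.14 and 8.18 in ischemic rats against 10.35, 10.53 and 10.74 in control rats, and the third read 8.36, 7.41 and 6.92 in ischemic rats against 10.44, 10.9998 and 10.71 in control rats. In a fit over all probe sets their differences were -2.06 (adjusted p = 0.00126) and -3.16 (adjusted p = 0.000721), and the third was below background in ischemic rats 65 and 66. The call at adjusted p under 0.01 for the first probe set was lost when ischemic rat 65 or 66 or any control rat was left out (differences of -2.24 to -1.83, adjusted p from 0.0104 to 0.0164), and was kept without ischemic rat 64.

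*Itgav*, the α partner of *Itgb3* and *Itgb5*, did not pass the test. It read 11.32, 11.40 and 11.31 in ischemic rats, against 11.12, 11.14 and 10.88 in control rats. The difference of 0.30 (SE 0.13, 95% interval 0.0011 to 0.59, limma adjusted p = 0.098) missed the threshold. The other probe sets of *Itgav* gave differences of 0.20 (adjusted p = 0.301) and 0.31 (adjusted p = 0.125) in the fit over all probe sets, with overlapping groups.

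**Figure D2:**
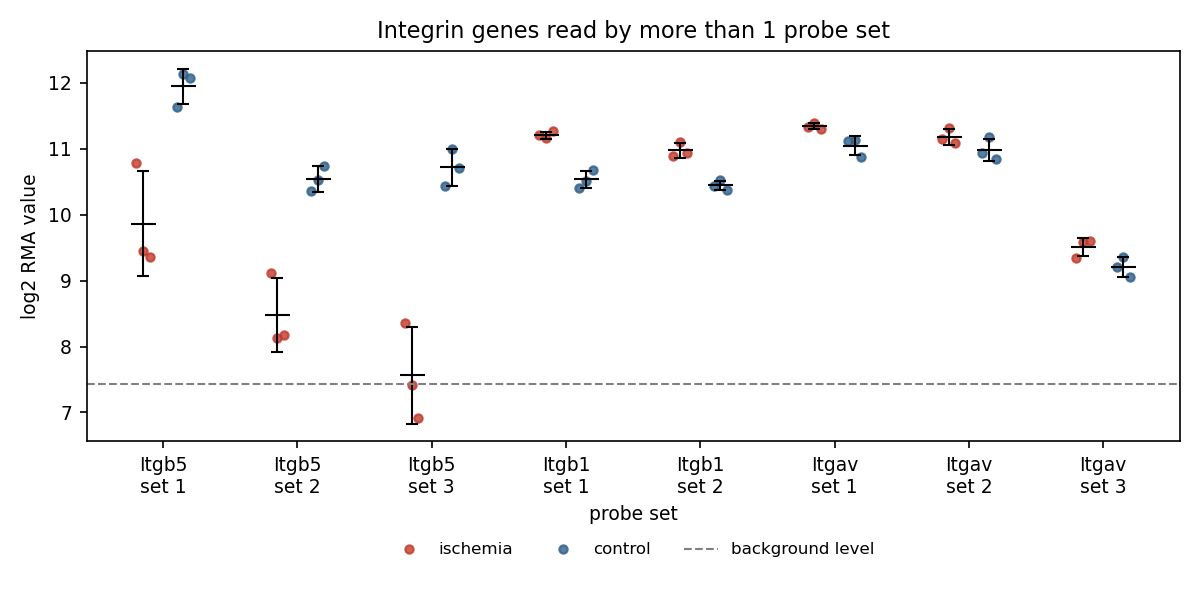
Log2 RMA values (vertical axis) of every probe set of *Itgb5*, *Itgb1* and *Itgav*, the members read by more than 1 probe set (horizontal axis), 1 point per rat, ischemic rats left of control rats, with mean and SD and the background level as a dashed line. All 3 probe sets of *Itgb5* are lower in ischemic rats, with rat 64 the highest of these in each, both of *Itgb1* are higher, and the differences for *Itgav* are 0.20 to 0.31.

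*Itgb1*, the most widely used β chain, read 11.21, 11.16 and 11.26 in ischemic rats, against 10.41, 10.52 and 10.68 in control rats. It was higher by 0.67 (SE 0.13, 95% interval 0.38 to 0.97, limma adjusted p = 0.00462), a 1.59-fold difference. Its second probe set, at 10.89, 11.11 and 10.94 in ischemic rats against 10.44, 10.52 and 10.38 in control rats, differed by 0.53 with adjusted p = 0.0137 over all probe sets and so did not pass. The call of the first was lost with arrays centred on ribosomal protein genes (0.25, adjusted p = 0.412) and without any 1 of the 6 rats other than control 69 (adjusted p from 0.0102 to 0.0216). *Itga5*, the α chain of the fibronectin receptor, read 9.19, 9.76 and 9.71 in ischemic rats against 8.63, 8.60 and 9.07 in control rats. Rat 64 was close to control 69, and the difference of 0.79 (SE 0.20, 95% interval 0.32 to 1.25, limma adjusted p = 0.0162) was not called at 0.01. *Itga5* passed without ischemic rat 64 (0.97, adjusted p = 0.00516). It did not pass without any 1 other rat (adjusted p from 0.0146 to 0.0646) or with ribosomal centring (0.36, adjusted p = 0.267).

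**Figure D3:**
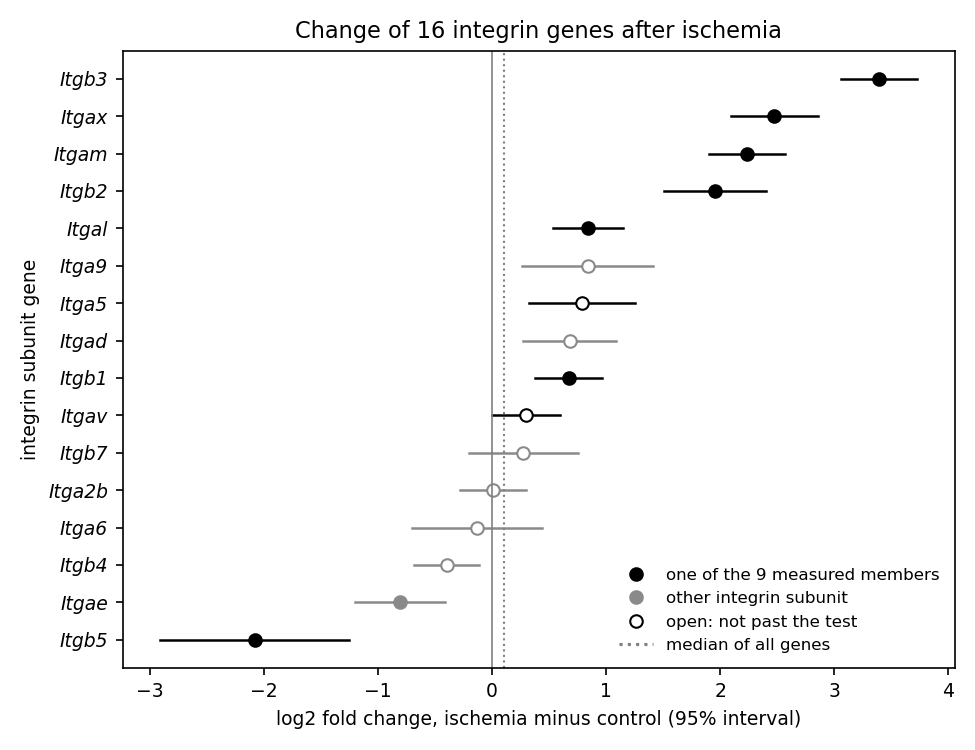
Log2 fold change, ischemia minus control, with its 95% interval (horizontal axis) for the 16 integrin subunit genes tested (vertical axis). Black marks the 9 measured members and grey the other subunits, filled points passed the test at adjusted p under 0.01, and the dotted line is the median of all genes, 0.10. *Itgb3* at 3.39 and *Itgb5* at -2.08 are the ends of the scale.

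Since an integrin reaches the membrane as a pair, the change of each α gene was set against that of its β partner within each array. The test was an exact two-sided permutation of the 6 rats, with 0.1 as the smallest p that 3 against 3 can give and 0.175 as the smallest obtained after adjustment over the 7 pairs measured, so no pair could pass a threshold of 0.05. *Itgam* changed by 0.28 more than *Itgb2* (SE 0.21, exact p = 0.4, adjusted 0.467), and the groups overlapped. *Itgax* changed by 0.52 more than *Itgb2* (SE 0.13, exact p = 0.1, adjusted 0.175), without overlap. The α minus β difference of *Itgax* and *Itgb2* was -0.070, -0.51 and -0.27 in ischemic rats, against -0.79, -0.74 and -0.86 in control rats. The change of *Itgal* minus that of *Itgb2* was -1.12 (SE 0.26, exact p = 0.1, adjusted 0.175), and the groups were apart.

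The β partners of *Itgav* differed more. The difference of *Itgav* and *Itgb3* was 0.51, 0.18 and 0.33 in ischemic rats, against 3.40, 3.55 and 3.35 in control rats, a change of -3.10 (SE 0.11, exact p = 0.1, adjusted 0.175). The difference of *Itgav* and *Itgb5* was 0.55, 1.94 and 1.95 in ischemic rats, against -0.51, -0.99 and -1.20 in control rats, a change of 2.38 (SE 0.51, exact p = 0.1, adjusted 0.175). Both pairs were thus apart between the groups, in opposite directions, and rat 64 was the ischemic rat nearest to the controls in both. *Itgav* and *Itgb1* differed in change by -0.38 (SE 0.17, exact p = 0.2, adjusted 0.28), and *Itga5* and *Itgb1* by 0.11 (SE 0.21, exact p = 0.7, adjusted 0.7), both with overlapping groups.

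**Figure D4:**
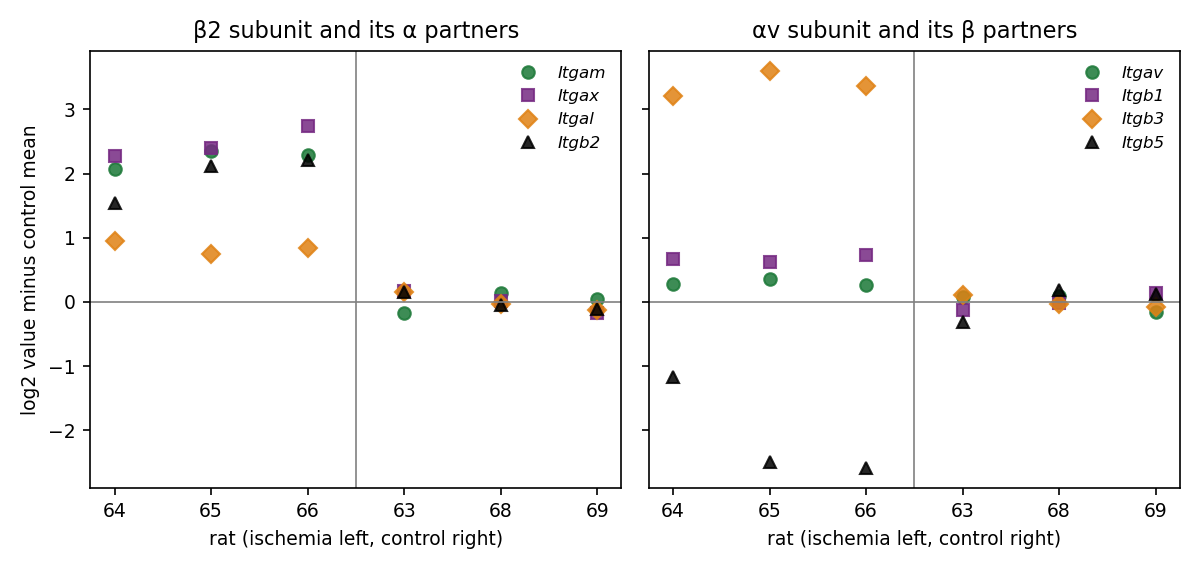
Log2 value minus the mean of the control rats (vertical axis) for each rat (horizontal axis, ischemic rats left of the line and control rats right of it), for *Itgb2* and its α partners (left) and for *Itgav* and its β partners (right). In ischemic rats *Itgam*, *Itgax* and *Itgb2* lie together above *Itgal*, and *Itgb3* and *Itgb5* lie on opposite sides of *Itgav*.

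Of 16 other integrin subunits listed, 13 had a probe set and 7 were tested, with 0 higher and 1 lower, a share of 14.3% against 22.8% of all genes. The gene that fell was *Itgae*, the αE chain (CD103) of a receptor for E-cadherin, at 8.49, 7.95 and 8.01 in ischemic rats against 8.83, 9.001 and 9.05 in control rats, a difference of -0.81 (SE 0.17, limma adjusted p = 0.00734). The call for *Itgae* was lost without any 1 rat other than ischemic rat 64 (adjusted p from 0.0157 to 0.0348) and without the low-signal filter (adjusted p = 0.0117). *Itgad*, the fourth α partner of *Itgb2* and the neighbour of *Itgax*, averaged 8.41 in ischemic rats and 7.73 in control rats, a difference of 0.68 (adjusted p = 0.0175). *Itga9*, which pairs with *Itgb1*, averaged 9.39 in ischemic rats and 8.55 in control rats, a difference of 0.84 (adjusted p = 0.0282). *Itga6*, a laminin-binding α chain, *Itgb7*, the β partner of *Itgae*, and *Itgb4* differed by -0.13, 0.28 and -0.40 with adjusted p of 0.686, 0.313 and 0.0346. *Itgb4* averaged 7.00 in ischemic rats and 7.40 in control rats, below background in both groups. The remaining 6 subunits with a probe set were not tested because their signal was too low.

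Of 13 genes tested that switch integrins to their active form, 1 was higher and 0 were lower, against 16.8% higher and 5.99% lower of all genes, and their median log2 fold change was 0.050. The gene that rose was *Rap1a*, a small GTPase that recruits talin to the β chain, at 12.52, 12.76 and 12.66 in ischemic rats against 11.96, 11.95 and 12.08 in control rats (0.65, SE 0.13, limma adjusted p = 0.00516). This call was lost with ribosomal centring (0.22, adjusted p = 0.480), with quantile normalization repeated (adjusted p = 0.0121) and without any 1 rat other than ischemic rat 64 (adjusted p from 0.0135 to 0.0319). *Rap1b* averaged 13.50 in ischemic rats and 13.25 in control rats (adjusted p = 0.275). *Tln1*, talin itself, averaged 12.65 in ischemic rats and 12.58 in control rats (adjusted p = 0.727).

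Of the genes that link integrins to actin and to kinases, 7 of 23 tested were higher (30.4%, against 16.8% of all genes), 0 were lower and 16 did not pass, with a median log2 fold change of 0.30. *Actn1*, the actin cross-linker α-actinin, read 9.29, 11.07 and 10.83 in ischemic rats against 8.53, 8.01 and 8.53 in control rats (2.04, SE 0.43, limma adjusted p = 0.00689), with rat 64 again nearest to the controls. The Src family kinase *Fgr*, which acts downstream of β2 integrins in myeloid cells, was higher by 1.79 (SE 0.32, adjusted p = 0.00366). The parvins *Parvg* and *Parvb*, adaptors between integrin-linked kinase and actin, were higher by 1.30 and 1.10 (adjusted p = 0.00356 and 0.00398). The other 3 were *Lims1*, *Lyn* and *Actn4*, named after their values were seen, with rises of 0.97, 0.86 and 0.73. Each of the 7 calls was lost without at least 1 rat (adjusted p of the lost calls from 0.0116 to 0.0314). That of *Actn1* was lost without any 1 rat other than ischemic rat 64, and that of *Parvg* without any 1 control rat. With ribosomal centring only *Actn1* and *Fgr* stayed past the test. The *Actn1* call was also lost without the low-signal filter and with the mean of all probe sets (adjusted p = 0.0156 and 0.0130). Robust moderation and repeated quantile normalization lost it too (adjusted p = 0.0145 and 0.0124). *Vasp* and *Tes*, of highest mean among those that did not pass, had differences of 0.30 and 0.61 (adjusted p = 0.231 and 0.0732).

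Among 8 membrane proteins that associate with integrins, 2 were higher and 0 lower, a share of 25% past the test against 22.8% of all genes. *Plaur*, the urokinase receptor, which associates with β2 and β3 integrins in the membrane, read 11.31, 12.34 and 12.61 in ischemic rats against 9.30, 8.44 and 9.43 in control rats (3.03, SE 0.37, limma adjusted p = 0.000936). The tetraspanin *Cd9* was higher by 1.95 (SE 0.33, adjusted p = 0.00296), a call lost without ischemic rat 65 or 66 or control rat 68 or 69 (adjusted p from 0.0104 to 0.0140) whereas that of *Plaur* was kept without any 1 rat. *Cd81*, another tetraspanin, and *Cd47*, the integrin-associated protein, differed by -0.26 and 0.56 (adjusted p = 0.330 and 0.0123).

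Ligands of integrins on cells and in the matrix were counted separately, and 22.8% of all genes passed in either direction. Of 6 cell-surface ligands tested, 0 were higher and 1 was lower, *Icam2*, a ligand of LFA-1, at 10.41, 9.65 and 9.93 in ischemic rats against 10.98, 11.22 and 11.04 in control rats (-1.08, SE 0.20, limma adjusted p = 0.00413). The call was lost without any 1 rat other than ischemic rat 64 (adjusted p from 0.0133 to 0.0185). *Icam1*, the main ligand of LFA-1 and of CD11b/CD18, averaged 12.94 in ischemic rats and 13.02 in control rats (adjusted p = 0.771). *Vcam1*, the ligand of α4β1, varied between 9.60 and 12.16 in ischemic rats and between 8.55 and 11.41 in control rats (adjusted p = 0.466). Of 14 matrix and soluble ligands tested, 3 were higher and 0 lower, which were *Fn1*, *Spp1* and *Mfge8*. *Fn1*, fibronectin, the ligand of α5β1, and *Spp1*, osteopontin, a ligand of αvβ3, were higher by 5.96 (SE 0.52) and 5.09 (SE 0.26). In control rats *Fn1* read 8.57, 7.59 and 6.39, within the range of the genes of other tissues, so its difference may be a lower limit. *Mfge8*, which bridges apoptotic cells to αvβ3 and αvβ5, was higher by 0.98 (SE 0.16, limma adjusted p = 0.00236), a call lost without ischemic rat 65 (adjusted p = 0.0136) and with ribosomal centring (0.56, adjusted p = 0.109). *Tgfb1*, whose latent form is held by αv integrins, and *Ccn2* differed by 0.60 and 2.40 without passing (adjusted p = 0.0663 and 0.0617).

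Markers of the labelled cell type were high on all arrays. *Mrc1*, *Stab1* and *Lyve1* averaged 14.04, 13.41 and 13.64 in ischemic rats and 14.22, 14.37 and 13.65 in control rats, and 1 of 9 markers of border-associated macrophages, *Colec12*, fell (-1.95, limma adjusted p = 0.00143). The mean over these 9 markers was 12.59 to 13.42 in ischemic rats and 12.96 to 13.95 in control rats. The order of the ischemic rats in this mean, with rat 64 the highest and rat 66 the lowest, was that of *Itgb5*, and the link was not tested.

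The β2 integrins are also carried by blood monocytes and granulocytes, so the markers of these cells are given beside them. Over 8 monocyte markers the mean was 10.44, 10.995 and 11.21 in ischemic rats 64, 65 and 66 and 9.20 to 9.83 in control rats, and 4 of 8 were higher, *Ly6c* (4.68), *S100a4* (2.10), *Plac8* (1.31) and *F10* (1.14). *Ly6c* averaged 7.29 in control rats, below background, so its difference is a lower limit. *Cx3cr1* and *Ccr2*, the monocyte markers of highest mean, differed by 0.68 and 0.43 (adjusted p = 0.0264 and 0.311). Over 9 granulocyte markers the mean was 7.81, 8.89 and 8.58 in ischemic rats and 6.58 to 6.76 in control rats, and 4 of 7 tested were higher, *S100a8* (3.36), *Lcn2* (3.34), *Mmp9* (2.86) and *Fcnb* (2.85). The control means of *S100a8*, *Lcn2* and *Mmp9* were below background, at 5.31, 5.19 and 6.05, so their differences are lower limits too. *S100a9* and *Csf3r* were higher by 2.19 and 0.93 without passing (limma adjusted p = 0.0119 and 0.0113). Their control means, 7.26 and 7.03, were below background, so these differences are lower limits as well. *Cxcr2* averaged 8.70 in ischemic rats and 9.19 in control rats. Of the granule genes *Camp* and *Mmp8*, neither exceeded background on average, at 6.67 and 5.73 in ischemic rats and 5.94 and 5.51 in control rats. Rat 64 was the lowest ischemic rat in both marker means, as it was for *Itgb2*, *Itgax* and *Itgam*, whereas for *Itgal* it was the highest. The calls of *S100a4*, *Plac8*, *Mmp9* and *Fcnb* were lost without at least 1 rat (adjusted p of the lost calls from 0.0103 to 0.0231), and those of *Ly6c*, *S100a8* and *Lcn2* were not. With ribosomal centring the calls of *Plac8* and *F10* were lost (adjusted p = 0.0534 and 0.0600). In the paper, cytometry of sorted CD163+ cells from ischemic tissue found a small share of granulocytes among them. The part of such cells in the integrin values was not tested.

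Among markers of further cell types, *Cd2* alone of those tested rose. Of the dendritic cell markers *Flt3* fell by 1.83 and *Batf3* differed by 0.56 (adjusted p = 0.0170). Of 5 lymphocyte markers tested, *Cd2* was higher by 1.58, *Cd5* and *Cd7* fell by 1.05 and 3.12, and *Cd79b* differed by -0.057, while *Cd3e* and *Cd3g* were below background in all rats. Of 6 microglia markers tested, 1 passed, *P2ry12*, which fell by 1.78. *Gpr34* and *Sparc* differed by -1.71 and 0.063 (limma adjusted p = 0.0122 and 0.837). *Tmem119*, *Slc2a5* and *Sall1* differed by 0.61, 0.26 and -0.13 (adjusted p = 0.112, 0.364 and 0.756). Of 7 endothelial markers tested, 1 passed, *Egfl7*, which fell by 2.87. *Esam*, *Tie1*, *Tek* and *Flt1* differed by -0.36, 0.41, -1.93 and 1.21 (limma adjusted p = 0.157, 0.305, 0.0163 and 0.166). No mural or fibroblast marker of the 3 tested passed. The calls of *Cd2*, *Cd5* and *Flt3* were lost without at least 1 rat (adjusted p of the lost calls from 0.0112 to 0.0240).

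The genes closest in pattern to 2 members were found over the 6 rats, by the mean absolute difference between values relative to the control mean. Nearest to *Itgax* were *Ctps1* (0.0706), *Hacd1* (0.0723), *Rab7b* (0.0841) and *Fbxo27* (0.118), with rises of 2.37 to 2.44. *Ctps1* encodes a CTP synthase, *Hacd1* an enzyme of fatty acid elongation and *Rab7b* a GTPase of endosomes. Nearest to *Itgb5* were *Il16* (0.0866), *Ypel3* (0.0957), *Fah* (0.152) and *Sesn1* (0.170), with log2 fold changes between -2.23 and -1.93. In each of these 4, as in *Itgb5*, ischemic rat 64 had the highest value of the ischemic rats. This follows from their choice by likeness to *Itgb5* over the same rats and is no separate observation.

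Without control rat 63, 5 of the 9 integrin genes were higher and 0 lower, and without ischemic rat 64, 6 were higher and 1 was lower. Of all 9928 genes tested, 1006 were higher and 379 lower without control rat 63. Without ischemic rat 64, 1564 were higher and 816 lower. *Itgb3*, *Itgax*, *Itgam* and *Itgb2* were higher at adjusted p under 0.01 in all of the 18 alternative settings run.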

How the data were processed

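The authors processed the arrays, of an Affymetrix rat genome design, with RMA, which corrects the background, quantile-normalizes the arrays and summarizes the probes of a set, and deposited 1 log2 value per probe set and array. The submitters' processing notes name R 3.3.1 and limma 3.18. Values were used as deposited, for 31099 probe sets, of which 57 were controls, 20826 carried 1 gene symbol, 436 several and 9780 none. Of the single symbols, 20758 were found in RefSeq and 0 needed updating. The annotation gives no genome build.

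For a gene with several probe sets, that of highest mean over the 6 arrays was taken, and a gene was tested if its value was above 7.16, the 40th percentile, on 3 or more arrays. Ischemic and control rats were compared in limma 3.58.1 (lmFit, eBayes) under R 4.3.3, with Benjamini-Hochberg adjustment over 9928 genes. Groups came from GEO's labels, each rat is 1 sample, and no rat of one group was paired with one of the other. The scripts were tested on simulated data. Precision is limited in part by the number of rats, and arrays have no read depth.

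The integrin genes and all lists were chosen with earlier results of these data known. Genes were mostly named from the pathway lists where they were among the 4 of largest change that passed or the 2 of highest mean that did not. From marker lists they were mostly named where they were among the 3 of highest mean or passed above background. Genes named outside these rules included *Lims1*, *Lyn*, *Actn4*, *Itgad*, *Itga9* and *Itgb4*. Among markers they included *Csf3r*, *Camp*, *Mmp8*, *Cd3e*, *Cd3g*, *Ppbp*, *Tubb1*, *Tmem119*, *Slc2a5*, *Sall1*, *Tek* and *Flt1*. The mural and fibroblast markers and the untested dendritic cell marker *Clec9a* were not named by the rule. Alternatives covered the filters, the probe set per gene, array scaling, moderation, the threshold and leaving out each rat. Other cells and experiments of the study are not analysed here.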

Additional observations from a re-analysis of the deposited data

How the results depend on the processing

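Leaving out 1 rat at a time gave 4 to 6 integrin genes higher and 0 to 1 lower, against 6 and 1 with all rats. With arrays centred on 42 ribosomal protein genes, 4 were higher and 1 lower, the median log2 fold change of all genes was -0.32 in place of 0.10, and 22.6% of all genes called were higher in place of 73.7%. With quantile normalization repeated, 5 were higher and 59.96% of all called genes were, and with array weights 7 and 64.5%. With an adjusted p under 0.05, 7 were higher. Over all genes tested, 1391 were higher with repeated quantile normalization, 2374 with array weights and 2722 with adjusted p under 0.05. Over all genes, 1664 higher and 595 lower became 397 and 1360 with ribosomal centring, 681 and 166 without ischemic rat 65, and 1564 and 816 without ischemic rat 64. The difference in change between *Itgav* and *Itgb5* was 3.46 with the probe set of largest interquartile range, in place of 2.38. The sign of *Itgav*, which was not called, turned (-0.13) with ribosomal centring. The causes were not tested. No paired analysis was possible because the groups share no replicate numbers.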
